A study of Mus musculus with 18 samples.

Results

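Translation factors carry the ribosome through initiation and elongation, and aminoacyl-tRNA synthetases load each tRNA with its amino acid. The genes described here were taken from the bead array by name: probes with a single gene symbol of an initiation factor (eIF1 to eIF6), of an elongation factor group (Eef1 or Eef2) or of an aminoacyl-tRNA synthetase. The rule left out Eif2ak2 and Eif4ebp1. The array held 200 such probes for 96 genes, and 146 probes for 79 genes passed detection, that is a p-value below 0.05 for signal over background, on 3 or more of the 18 arrays. Those 79 genes, of 9973 tested in all, comprised 50 translation factors and 29 tRNA synthetases. The other 17 genes were detected on at most 1 array by any of their probes: the factors Eef1akmt2, Eif1ax, Eif2s3x-ps1, Eif2s3y, Eif3e, Eif3j1, Eif3m, Eif4e1b, Eif4ebp3, Eif4g3 and Eif5a2, and the synthetases Cars, Hars2, Nars2, Wars2, Yars and Yars2.

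Basophils were grown in culture from C57BL/6J bone marrow, taken at 4 to 6 weeks of age. Mast cells of the same study are not analysed here. The 6 groups of 3 arrays were ST2KO basophils activated through IgE for 4 h, ST2KO basophils stimulated with IL-33 for 4 h, unstimulated ST2KO basophils, and the same 3 conditions of wild-type (WT) basophils. ST2 is the receptor for IL-33, encoded by Il1rl1; 0 probes carried that symbol, so the genotype was not checked on the targeted gene. The dose of each stimulus, the antigen or antibody behind the IgE activation and the kind of ST2 allele are not given in the sources used here. Whether the 3 samples of a group were separate cultures or animals is not stated, and the p-values describe the sample-to-sample spread alone, which could be technical.

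Initiation begins when eIF2 brings the initiator tRNA to the small ribosomal subunit, with eIF1, eIF1A and eIF3 bound there. The eIF4 factors recruit capped mRNA and unwind it, and eIF2B recharges eIF2 with GTP after each round. In elongation eEF1A delivers the loaded tRNAs and eEF2 moves the ribosome on. Kinases that phosphorylate eIF2 slow initiation and raise translation of the transcription factor ATF4, whose known targets include several synthetases. In basophils, crosslinking of the IgE receptor starts a burst of cytokine synthesis, which depends on this machinery.

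Between 32.2% and 34.8% of probes were detected per array, the median signal lay between 93.2 and 104, and replicate arrays correlated at 0.981 to 0.994 across the genes tested. All 12 basophil markers were measured, and 11 of them, Mcpt8, Fcer1a and Prss34 among them, were detected on all 18 arrays. Of the lymphocyte markers 0 were measured, and the eosinophil markers Epx, Siglecf and Ccr3 were detected on 0 arrays. The WT arrays numbered 2 stood apart, with 9.42 (IgE), 10.04 (IL-33) and 9.46 (unstimulated) log2 units for the eosinophil granule gene Prg2, against 6.91 to 8.29 on the other WT arrays. The WT totals of the 2 families are therefore also given without those 3 arrays.

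IgE activation moved many genes of both families. Of the 29 synthetases, 16 rose and 6 fell in ST2KO basophils, and 15 rose and 4 fell in WT basophils. The rises of each genotype include Sars2, which was not above background on any unstimulated array. Of the 50 translation factors, 18 rose and 9 fell in ST2KO, and 18 rose and 12 fell in WT. The highest rises belonged to Eef1e1, a scaffold protein of the multisynthetase complex, the isoleucyl-tRNA synthetase Iars, and the initiation genes Eif2b3, Eif1a and Eif4a1. The deepest falls belonged to the translocation factor Eef2, its inhibitory kinase Eef2k, the helicase cofactor Eif4b and the eIF2 kinase Eif2ak1.

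These calls use limma's moderated test with Benjamini-Hochberg adjustment over all 9973 genes, at an adjusted p of 0.05. Among all genes tested the same comparison called 22.8% higher and 26.4% lower in ST2KO, and 22.7% higher and 24.3% lower in WT, so the share of factors that fell and the share of synthetases that fell lay at or below the background. The median log2 fold change of the synthetases was 0.34 in ST2KO and 0.36 in WT, that of the factors was 0.11 in both, and that of all genes was -0.03 in ST2KO and -0.02 in WT. Without the 3 WT arrays numbered 2, 15 synthetases rose and 5 fell and 17 factors rose and 11 fell in WT. In RNA from whole cultures, fewer cells of a type and less RNA per cell cannot be told apart.

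**Figure D1:**
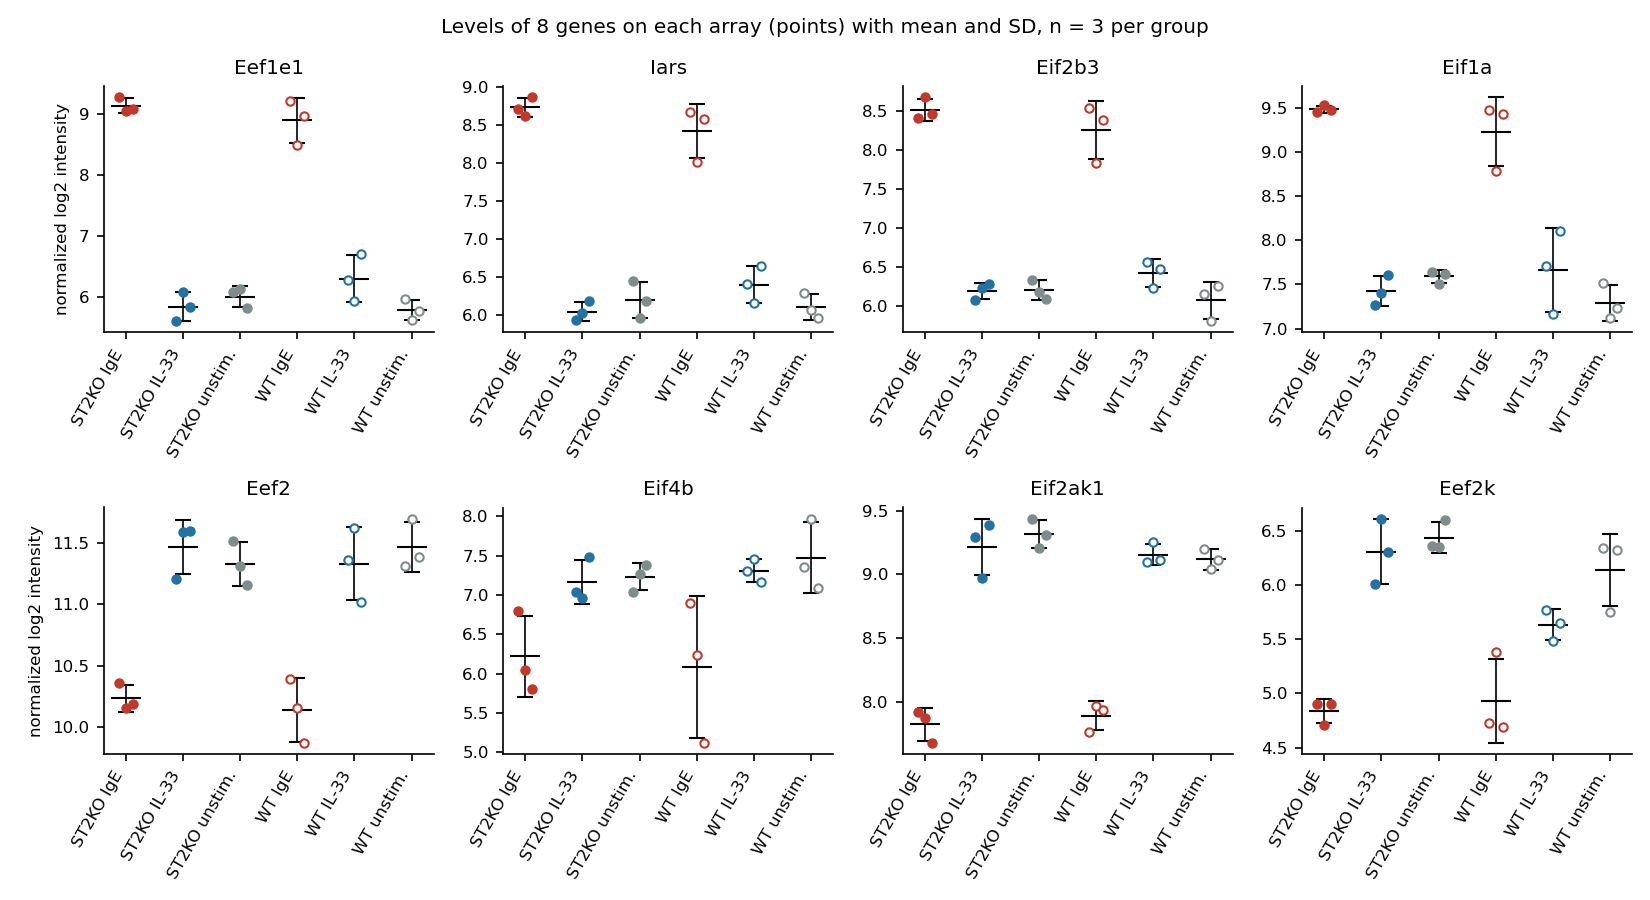
Normalized log2 intensity (vertical axis, scaled for each gene) of 8 genes on each array, with the mean and SD of the 3 arrays of a group as bars. Filled points are ST2KO and open points WT; red marks IgE, blue IL-33 and grey unstimulated. The IgE arrays stand above the unstimulated arrays in both genotypes for Eef1e1, Iars, Eif2b3 and Eif1a, and below them for Eef2, Eif4b, Eif2ak1 and Eef2k.

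Among the genes that start initiation, Eif1a encodes eIF1A, which helps the small subunit scan for the start codon. Its level was 9.45, 9.53 and 9.47 log2 units on the ST2KO IgE arrays, against 7.64, 7.51 and 7.62 without stimulation. In WT it was 9.48, 8.78 and 9.43 after IgE, against 7.52, 7.12 and 7.23 unstimulated. No IgE array overlapped an unstimulated one, and the log2 fold change was 1.89 ± 0.20 in ST2KO and 1.94 ± 0.20 in WT (± standard error of the fit, 3 arrays per group). Eif1b, a paralog of eIF1, was at 0.14 in ST2KO and -0.02 in WT and did not pass in either.

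Of the eIF2 subunits Eif2s2 and Eif2s3x and the related factors Eif2a and Eif2d, 2 rose and 0 fell in each genotype. Eif2s2, the beta subunit, had 7.56, 7.50 and 7.49 log2 units on the ST2KO IgE arrays, against 6.60, 6.63 and 6.53 unstimulated. The WT values were 7.47, 7.18 and 7.39 after IgE, against 6.68, 6.32 and 6.19 unstimulated. The groups did not overlap, and the adjusted p was 0.00014 in ST2KO and 0.00012 in WT. The gamma subunit Eif2s3x also rose, with log2 fold changes of 0.70 in ST2KO and 0.55 in WT.

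eIF2B, which reloads eIF2 with GTP, gave the second highest factor. Its gamma subunit Eif2b3 had 8.40, 8.67 and 8.45 log2 units on the ST2KO IgE arrays, against 6.34, 6.18 and 6.09 unstimulated, and 8.53, 7.83 and 8.38 on the WT IgE arrays, against 6.16, 5.81 and 6.26 unstimulated. All IgE arrays lay above all unstimulated arrays, a 4.92-fold rise in ST2KO and a 4.50-fold rise in WT. The subunits did not move as a block. Eif2b1 (0.86 in ST2KO, 0.70 in WT) and Eif2b5 (0.56, 0.53) rose less, and Eif2b4 (0.20, 0.19) did not pass in either genotype. Eif2b2 was at -0.27 in ST2KO without passing and fell by 0.38 in WT, a call that was lost without WT unstimulated array 3 (adjusted p = 0.053) or WT IgE array 3 (adjusted p = 0.0748).

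The 3 kinases that phosphorylate eIF2 and belong to this set went different ways. Eif2ak1, the heme-regulated kinase, had 7.92, 7.87 and 7.68 log2 units on the ST2KO IgE arrays, against 9.43, 9.21 and 9.31 unstimulated, and 7.76, 7.97 and 7.94 on the WT IgE arrays, against 9.20, 9.04 and 9.11 unstimulated. The groups were far apart, and Eif2ak1 fell by 1.49 ± 0.12 in ST2KO (adjusted p = 2.12e-08) and by 1.23 ± 0.12 in WT (adjusted p = 2.21e-07). Eif2ak3, the endoplasmic reticulum kinase PERK, was at 0.06 in ST2KO without passing and rose by 0.42 in WT, where the call was lost without the arrays numbered 2 (adjusted p = 0.0802). Eif2ak4, the amino acid sensor GCN2, was detected on 3 of 18 arrays and did not pass. Another eIF2 kinase gene, Eif2ak2, was measured but left out of the set by the rule. Its level was 7.54 to 7.99 log2 units on the ST2KO IgE arrays, against 8.19 to 8.88 unstimulated. In WT it was 8.25 to 9.31 after IgE, against 9.13 to 10.32 unstimulated, and the groups overlapped.

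The eIF3 complex, a scaffold on the small subunit, split in opposite directions. Eif3b, a core subunit, had 9.38, 9.35 and 9.07 log2 units on the ST2KO IgE arrays, against 8.19, 8.12 and 7.93 unstimulated. In WT it had 9.23, 9.07 and 9.02 after IgE, against 7.92, 8.23 and 8.12 unstimulated. The groups did not overlap, and the rise was 2.28-fold in ST2KO and 2.02-fold in WT. Eif3a (0.85 in ST2KO, 0.74 in WT) and Eif3d (0.74, 0.70) rose as well, although Eif3a missed the threshold in WT when both of its probes were averaged (adjusted p = 0.0526). Eif3f fell by 0.60 in ST2KO and by 0.82 in WT, and its second kept probe gave -0.66 and -0.86. Eif3h fell by 0.73 in WT and was at -0.09 in ST2KO without passing. The fall of Eif3k in WT (log2 fold change -0.53, adjusted p = 0.0289) was lost in 8 of the 29 alternative settings, among them the omission of the arrays numbered 2 (adjusted p = 0.0665), of WT unstimulated array 3 (0.166), of WT IgE array 1 (0.0592) or of WT IgE array 2 (0.128), and in ST2KO it was at -0.29 without passing.

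The eIF4 group binds the cap and unwinds mRNA, and of its 9 genes 4 rose and 2 fell in each genotype. Eif4a1, the helicase, had 13.11, 12.92 and 13.05 log2 units on the ST2KO IgE arrays, against 11.64, 11.46 and 11.43 unstimulated, and 13.04, 12.65 and 12.93 on the WT IgE arrays, against 11.42, 11.03 and 11.18 unstimulated. Both genotypes were clear of overlap, at 1.52 ± 0.15 in ST2KO and 1.66 ± 0.15 in WT. Its paralog Eif4a2 did not pass (-0.23 in ST2KO, 0.07 in WT). The cap-binding protein Eif4e rose by 1.09 in ST2KO and by 0.78 in WT, where WT IgE array 2 (5.10) lay within the unstimulated range (4.50 to 5.15). The exon junction helicase Eif4a3 rose as well (0.56 in ST2KO, 0.49 in WT). Eif4g2, an eIF4G-like scaffold without the eIF4E-binding part, rose by 1.42 and 1.05, but one of its 3 kept probes gave -0.45 in WT, and averaging its probes ended the WT call (adjusted p = 0.0876).

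Eif4b, which stimulates the helicase, was lower and more scattered. It had 6.80, 6.05 and 5.80 log2 units on the ST2KO IgE arrays, against 7.04, 7.27 and 7.38 unstimulated, and 6.90, 6.23 and 5.12 on the WT IgE arrays, against 7.36, 7.97 and 7.09 unstimulated. The IgE arrays stayed below the unstimulated ones in both genotypes, and Eif4b fell by 1.01 ± 0.34 in ST2KO (adjusted p = 0.021) and by 1.39 ± 0.34 in WT (adjusted p = 0.00287). A second kept probe of Eif4b, detected on all 18 arrays, fell less, at -0.62 in ST2KO and -0.45 in WT. The ST2KO call was lost when unstimulated array 2 (adjusted p = 0.0528) or 3 (0.0652) or IgE array 2 (0.0663) or 3 (0.0964) was left out. The cap-binding homolog Eif4e3 fell by 0.67 in ST2KO and by 0.51 in WT. Among the proteins that hold eIF4E away from eIF4G, Eif4ebp2 had 4.49 to 4.61 log2 units on the ST2KO IgE arrays, against 4.58 to 4.96 unstimulated, and 4.39 to 4.81 on the WT IgE arrays, against 4.65 to 5.05 unstimulated. It was detected on 5 of 18 arrays and its groups overlapped. Eif4ebp1, another such protein, was measured but left out of the set by the rule. It had 10.45 to 10.87 log2 units on the ST2KO IgE arrays, against 11.53 to 11.80 unstimulated. In WT it had 10.24 to 10.72 after IgE, against 11.08 to 11.77 unstimulated, and the groups did not overlap in either genotype.

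Eif5a encodes a factor that helps the ribosome past difficult peptide bonds and is the only protein known to carry hypusine. Its level was 11.81, 11.80 and 11.67 log2 units on the ST2KO IgE arrays, against 10.41, 10.62 and 10.34 unstimulated, and 11.80, 11.65 and 11.58 on the WT IgE arrays, against 10.29, 10.74 and 10.67 unstimulated. The groups did not overlap in either genotype, and all 3 of its probes rose alike, by 1.26 to 1.30 in ST2KO and by 1.07 to 1.16 in WT. Eif6, which keeps the ribosomal subunits apart until the large one is mature, rose by 1.01 in ST2KO and by 0.84 in WT. Eif5 and Eif5b did not pass in either genotype.

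The elongation group held the highest rise of all the factors in both genotypes, and the deepest fall in ST2KO. Of its 11 measured genes 2 rose and 5 fell in each genotype, and the 2 that rose, Eef1e1 and the methyltransferase gene Eef1aknmt, encode no elongation factor. The ST2KO call of Eef1aknmt was lost with the mean of its 3 probes (log2 fold change 0.22, adjusted p = 0.144). Eef1e1 had 9.27, 9.05 and 9.07 log2 units on the ST2KO IgE arrays, against 6.08, 6.13 and 5.82 unstimulated, and 9.21, 8.49 and 8.97 on the WT IgE arrays, against 5.97, 5.63 and 5.77 unstimulated. The gap was wide on every array, an 8.70-fold rise in ST2KO (adjusted p = 1.69e-09) and an 8.56-fold rise in WT (adjusted p = 2.22e-09). It ranked 53rd from the top among the 9973 genes in WT.

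Eef2, which moves the ribosome along the mRNA, had 10.36, 10.15 and 10.19 log2 units on the ST2KO IgE arrays, against 11.52, 11.31 and 11.16 unstimulated. In WT it had 10.39, 10.15 and 9.87 after IgE, against 11.31, 11.70 and 11.39 unstimulated. The groups did not overlap, and Eef2 fell by 1.10 ± 0.17 in ST2KO and by 1.33 ± 0.17 in WT, with its other 2 probes at -1.15 to -1.16 in ST2KO and at -1.39 in WT. The kinase that inactivates eEF2, Eef2k, had 4.90, 4.71 and 4.90 on the ST2KO IgE arrays, against 6.36, 6.35 and 6.60 unstimulated, and 4.73, 5.38 and 4.69 on the WT IgE arrays, against 6.34, 5.75 and 6.32 unstimulated. Eef2k fell by 1.60 in ST2KO and by 1.21 in WT without overlap, was detected on only 1 of the 3 WT IgE arrays, and had a second, dimmer probe near 0 (0.11 in ST2KO, 0.04 in WT).

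The subunits of the exchange factor that recycles eEF1A were lower after IgE: Eef1b2 by log2 fold changes of -0.51 in ST2KO and -0.83 in WT, Eef1g by -0.57 and -0.62, and Eef1d by -0.44 and -0.43. All 3 probes of Eef1b2 were lower, and Eef1g had 1 probe. Eef1d had a probe of opposite sign, and with the mean of its 3 probes its change turned round, to 0.010 in ST2KO and 0.145 in WT. Eef1a1 itself, which brings the loaded tRNAs, was at 14.48 to 14.55 log2 units on the ST2KO IgE arrays, against 14.52 to 14.66 unstimulated, and at 14.45 to 14.59 on the WT IgE arrays, against 14.52 to 14.59 unstimulated. The ranges overlap in both genotypes, and the log2 fold change was -0.04 in both without passing. This probe lies near the top of the measured scale, which may limit the change it can show. Of the other kept probes of Eef1a1, one detected on all 18 arrays gave 0.013 in ST2KO and -0.015 in WT. A dimmer one, detected on 13 of 18 arrays, gave -0.68 in ST2KO and -0.51 in WT.

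**Figure D2:**
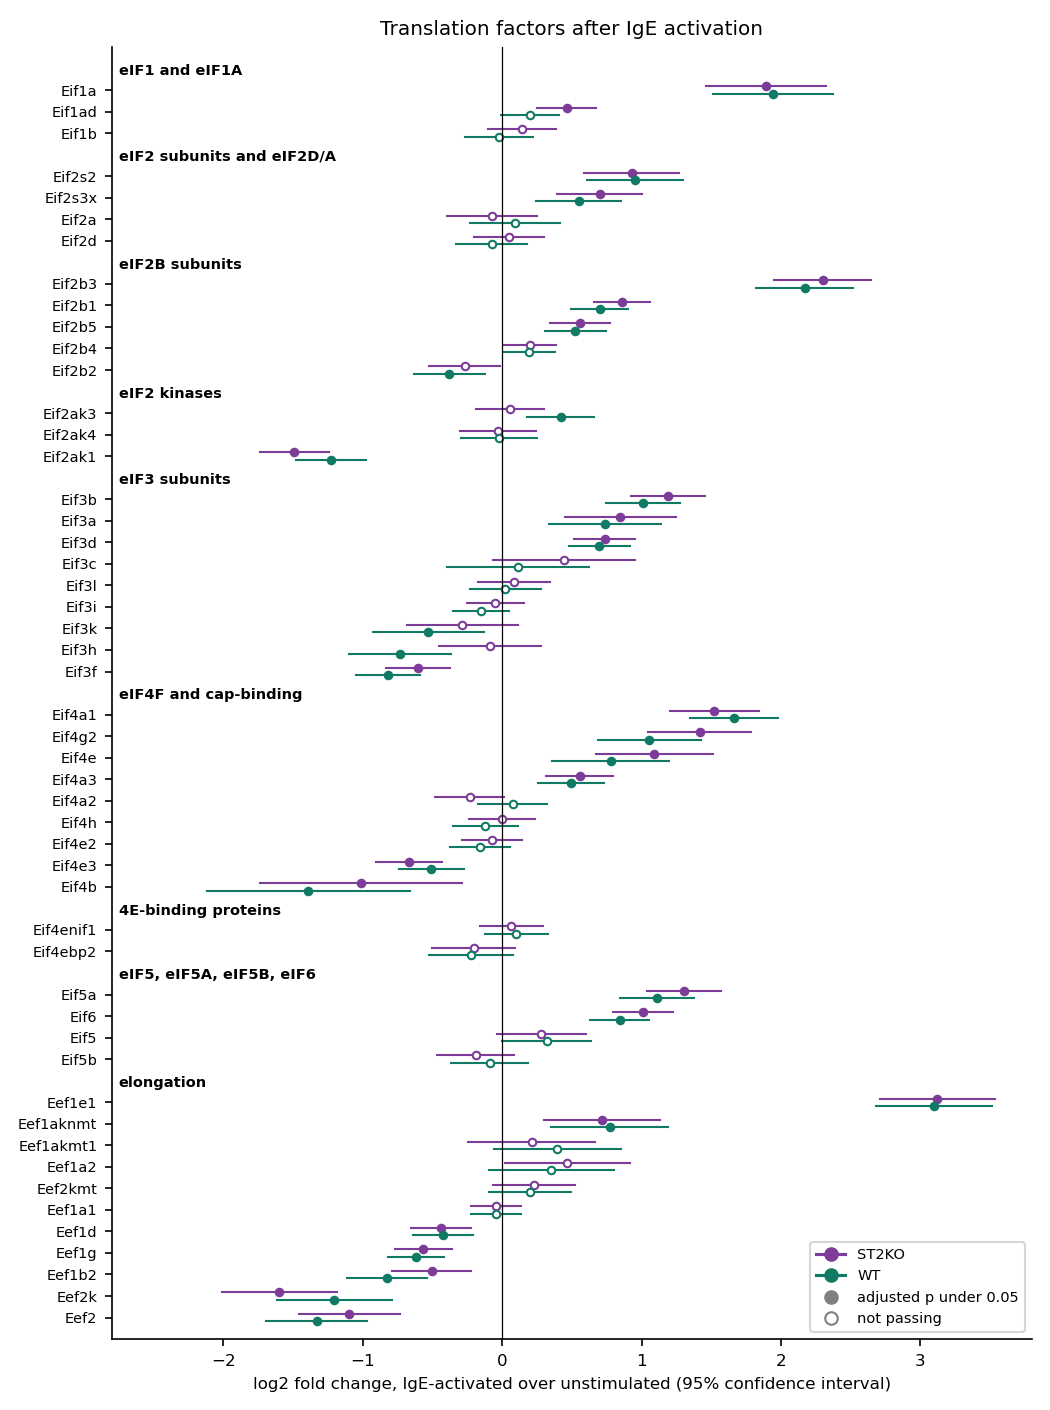
Log2 fold change after IgE activation (horizontal axis, with 95% confidence interval) of the 50 translation factors, grouped by role, in ST2KO (purple, upper) and WT (green, lower) basophils. Filled points passed at an adjusted p of 0.05; Eef1e1, Eif2b3, Eif1a and Eif4a1 lie farthest right, and Eef2k, Eif2ak1, Eif4b and Eef2 farthest left.

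The synthetases were split into cytosolic genes and mitochondrial genes, whose symbols end in 2. Among the 17 cytosolic genes 11 rose and 3 fell in ST2KO and 10 rose and 2 fell in WT. Iars, for isoleucine, had 8.72, 8.62 and 8.87 log2 units on the ST2KO IgE arrays, against 6.44, 5.96 and 6.18 unstimulated, and 8.67, 8.02 and 8.58 on the WT IgE arrays, against 6.29, 6.06 and 5.96 unstimulated. No array overlapped, and the rise was 5.84-fold in ST2KO (adjusted p = 3.57e-09) and 5.0-fold in WT (adjusted p = 1.16e-08). A second probe of Iars gave log2 fold changes of 2.63 in ST2KO and 2.49 in WT.

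Farsb, the beta subunit of the phenylalanine enzyme, had 10.09, 10.16 and 10.20 log2 units on the ST2KO IgE arrays, against 8.74, 8.69 and 8.68 unstimulated, and 10.14, 9.59 and 10.00 on the WT IgE arrays, against 8.63, 8.24 and 8.54 unstimulated. The groups were separate, a 2.72-fold rise in each genotype. Its partner, the alpha subunit Farsa, was detected on 4 of 18 arrays and did not pass. Rars, for arginine, had 9.18, 9.18 and 9.03 on the ST2KO IgE arrays, against 7.80, 7.79 and 7.76 unstimulated, and from 8.84 to 9.12 on the WT IgE arrays, against 7.87, 7.95 and 7.92 unstimulated. Its unstimulated arrays were tight and all below the IgE arrays, with log2 fold changes of 1.35 in ST2KO and 1.07 in WT.

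Aars, for alanine, had 10.02, 9.91 and 9.91 log2 units on the ST2KO IgE arrays, against 9.12, 9.07 and 8.84 unstimulated, and 10.05, 9.60 and 9.90 on the WT IgE arrays, against 8.85, 8.61 and 9.02 unstimulated. It rose without overlap, by 0.93 ± 0.14 in ST2KO and by 1.02 ± 0.14 in WT. Mars1 (1.06 in ST2KO, 0.89 in WT), Nars (0.80, 0.86) and Vars (0.74, 0.66), for methionine, asparagine and valine, rose in both genotypes. Eprs, the joined enzyme for glutamate and proline, rose by 0.79 in ST2KO and was at 0.31 in WT without passing, where 1 IgE array (6.90) stood above the other two (5.90 and 5.65).

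Kars, for lysine, rose by 0.67 in ST2KO and by 0.36 in WT, but averaging its 2 probes ended the WT call (adjusted p = 0.419), as did leaving out WT IgE array 3 (0.055) or the WT arrays numbered 2 (0.0524).

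Sars, for serine, went down in both genotypes. It had 8.37, 8.12 and 8.48 log2 units on the ST2KO IgE arrays, against 8.93, 8.83 and 8.93 unstimulated, and 8.26, 7.99 and 8.12 on the WT IgE arrays, against 8.68, 8.41 and 8.76 unstimulated. The groups did not overlap, and Sars fell by 0.57 in ST2KO and by 0.49 in WT. Qars, for glutamine, had 9.93, 9.88 and 9.78 on the ST2KO IgE arrays, against 10.19, 10.20 and 10.17 unstimulated, and 9.87, 9.74 and 9.74 on the WT IgE arrays, against 10.24, 10.24 and 10.07 unstimulated. It fell by 0.33 in ST2KO, a call that was lost without ST2KO IgE array 3 (adjusted p = 0.0541), and by 0.40 in WT, and all 3 of its probes were lower after IgE. Wars, for tryptophan, fell by 0.26 in ST2KO and was at -0.06 in WT without passing. The ST2KO call was lost without unstimulated array 2 (adjusted p = 0.0787) or 3 (0.116) or IgE array 1 (0.057), 2 (0.079) or 3 (0.0522). Averaging its probes also ended that call (adjusted p = 0.265). Its other kept probes, each detected on all 18 arrays, gave -0.082 to -0.195 in ST2KO and larger falls of -0.227 to -0.378 in WT. Lars did not pass in either genotype, and its 95% confidence intervals lay within a 1.5-fold change.

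Of the 12 mitochondrial synthetases 5 rose and 3 fell in ST2KO, and 5 rose and 2 fell in WT. Rars2 had 7.91, 7.72 and 7.89 log2 units on the ST2KO IgE arrays, against 7.12, 6.87 and 6.99 unstimulated, and 7.89, 7.80 and 7.86 on the WT IgE arrays, against 7.14, 6.71 and 6.80 unstimulated. All 3 of its probes rose, and the groups were apart. Vars2 had 6.72, 6.21 and 6.51 on the ST2KO IgE arrays, against 7.08, 7.01 and 7.21 unstimulated, and 6.14, 6.57 and 6.05 on the WT IgE arrays, against 6.87, 7.13 and 6.94 unstimulated. It fell by 0.62 in ST2KO and by 0.73 in WT, opposite in sign to its cytosolic counterpart Vars.

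Fars2 had 8.29, 8.21 and 8.20 log2 units on the ST2KO IgE arrays, against 8.88, 8.63 and 8.56 unstimulated, and 8.37, 8.25 and 8.10 on the WT IgE arrays, against 8.86, 8.71 and 8.50 unstimulated. It fell by 0.46 in ST2KO and by 0.45 in WT without overlap, while Farsb rose. Tars2 rose by 0.77 in ST2KO and by 0.48 in WT. Lars2 (0.49 in ST2KO, 0.48 in WT) and Mars2 (0.57, 0.55) also rose, but single arrays decided these calls: in ST2KO the adjusted p reached 0.0632 for Lars2 without unstimulated array 2, and 0.0869 and 0.0865 for Mars2 without unstimulated array 1 or IgE array 3. In WT it reached 0.0584 and 0.0788 for Lars2 without unstimulated array 3 or IgE array 1, and 0.136, 0.0916 and 0.0806 for Mars2 without unstimulated array 2, IgE array 1 or IgE array 3. Sars2 was not above background on any unstimulated array of either genotype, so its rise has only a bound, at least 1.03-fold in each genotype. Its ST2KO call was lost without any 1 of the 3 unstimulated arrays (adjusted p between 0.0594 and 0.121) and without IgE array 1 (0.0802) or 3 (0.129). Pars2 fell by 0.69 in ST2KO, a call that averaging its 3 probes ended (adjusted p = 0.295), and was at -0.26 in WT without passing.

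**Figure D3:**
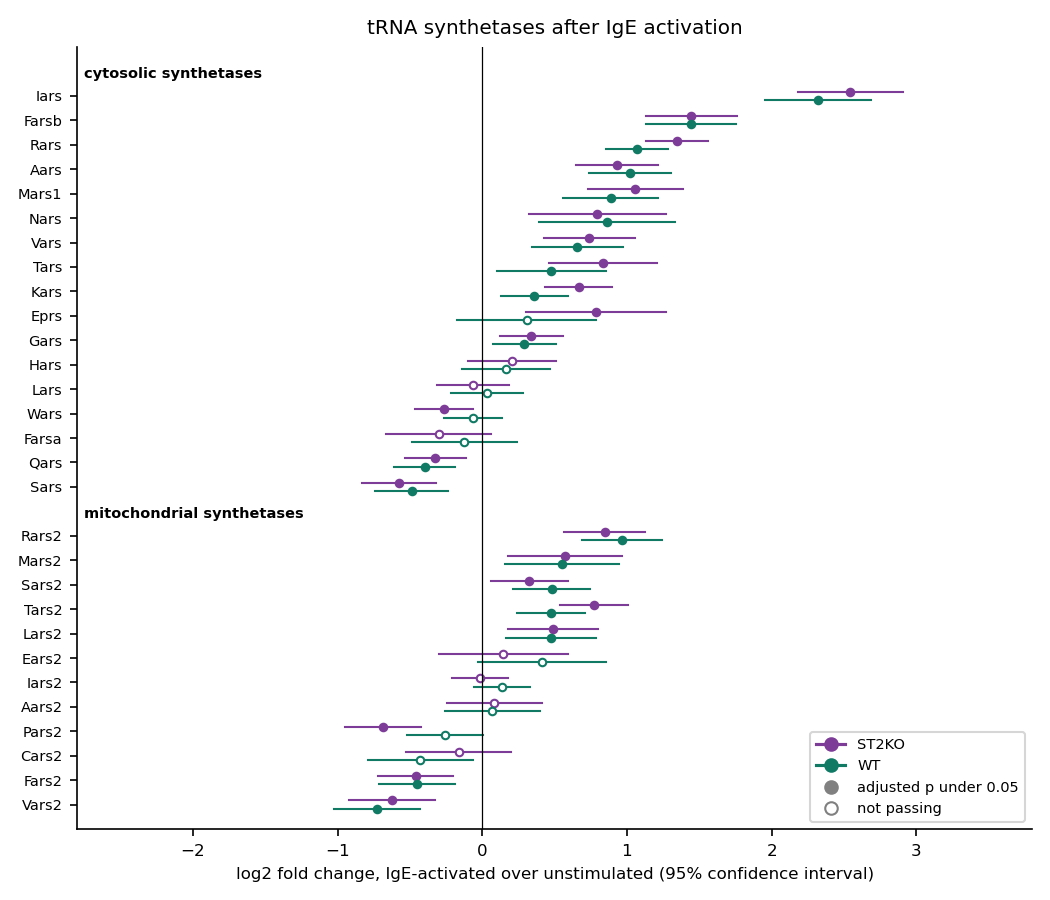
Log2 fold change after IgE activation (horizontal axis, with 95% confidence interval) of the 29 tRNA synthetases in ST2KO (purple, upper) and WT (green, lower) basophils, cytosolic genes above mitochondrial ones. Filled points passed at an adjusted p of 0.05; Iars and Farsb lie farthest right, while Sars, Qars, Fars2 and Vars2 lie left of 0 in both genotypes, and the fitted change of Sars2 rests on unstimulated arrays not above background.

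Several synthetases are known targets of ATF4, which binds sites with the letters TGATGNAA (N stands for any base). RefSeq promoter sequences of mouse build GRCm38.p6, from 250 bases before to 50 bases after a gene's start, were found for 62 of the 79 genes and searched on both strands. The letters occurred in 1304 of the 32851 promoters of the table, or 3.97%, and in 239 of the 8123 genes tested that had a promoter, or 2.94%. They occurred in 4 of the 22 synthetases with a promoter. All 4 passed as higher after IgE in WT, as did 12 of the 22 with or without the letters. The letters also occurred in 2 of 40 factors, of which Eef2k fell and Eif2s3x rose. The stretches of Iars, Gars and Tars run 5′ to 3′ on the gene's strand, with the matched letters in capitals. Each match lies on the opposite strand, so the capitals show its reverse complement. A match is a description of the sequence only.
Iars, chr13:49682126-49682155, plus strand: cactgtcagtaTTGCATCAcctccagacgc
Gars, chr6:55037960-55037989, plus strand: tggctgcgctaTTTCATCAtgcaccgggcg
Tars, chr15:11399655-11399684, minus strand: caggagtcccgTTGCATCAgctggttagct

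The size of the IgE response differed widely among these genes, and that of Iars is given above. Gars, for glycine, rose by 0.34 in ST2KO and by 0.29 in WT, where the call was lost without unstimulated array 2 (adjusted p = 0.0782), unstimulated array 3 (0.0564) or IgE array 1 (0.142). Tars, for threonine, rose by 0.83 in ST2KO and by 0.48 in WT, where the groups overlapped and the call was lost without unstimulated array 1 (adjusted p = 0.0743), 2 (0.0577) or 3 (0.0848) or IgE array 1 (0.154) or 3 (0.164). Of the 10 measured synthetases in a list of ATF4 targets, 7 rose and 2 fell in ST2KO and 6 rose and 1 fell in WT, with medians of 0.79 and 0.39.

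The letters CACGTG, an E-box that MYC and related factors bind, occurred in 7.15% of the promoters of the table and in 11.8% of tested genes with a promoter. They occurred in 11 of 40 factors and 5 of 22 synthetases. After IgE in WT, the factors with the letters were 5 of the 14 that rose and 4 of the 8 that fell, and the synthetases were 4 of the 12 that rose and 0 of the 4 that fell. They are shown for Farsb and Eif4a1, which rose after IgE, and for Eef2 and Eif3f, which fell.
Farsb, chr1:78488919-78488948, minus strand: ttagacaggcatCACGTGagacagcccaag
Eif4a1, chr11:69672595-69672624, minus strand: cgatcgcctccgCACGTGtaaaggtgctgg
Eef2, chr10:81176576-81176605, plus strand: acccggcgccgtCACGTGacgcacccaacc
Eif3f, chr7:108934335-108934364, plus strand: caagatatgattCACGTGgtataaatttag

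Genes around these 2 families were followed in lists. In the list on eIF2 phosphorylation and the ATF4 response, 3 of 13 measured genes rose and 4 fell in ST2KO, and 1 rose and 3 fell in WT. The 3 largest changes were falls in both genotypes: Trib3, a pseudokinase that dampens the response, fell (log2 fold change -2.15 in ST2KO, -2.12 in WT). The transcription factor gene Atf5 fell by 1.35 and 1.78, and Ddit3, which encodes CHOP, by 1.17 and 1.16. Atf4, named here after its values were seen, rose by 0.58 in ST2KO and was at 0.35 in WT without passing (adjusted p = 0.0656).

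In the list on cap-dependent control by mTOR and MNK, 2 of 18 genes rose and 8 fell in ST2KO, and 2 rose and 9 fell in WT. Pdcd4, an inhibitor of the eIF4A helicase, fell by 1.76 in ST2KO and by 1.77 in WT. Its level was 8.89 to 9.18 log2 units on the ST2KO IgE arrays, against 10.79 to 10.92 unstimulated, and 8.64 to 9.37 on the WT IgE arrays, against 10.68 to 10.87 unstimulated. Mknk2, a kinase of eIF4E, fell by 1.69 in ST2KO and by 1.59 in WT, and Larp1, a binder of terminal oligopyrimidine mRNAs, rose by 1.56 and 1.21.

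Termination and recycling factors rose in 4 of 6 cases in ST2KO and 5 of 6 in WT, with 0 falls. Denr, a recycling and reinitiation factor, rose by 1.85 in ST2KO and by 1.82 in WT, Abce1, the recycling ATPase, by 0.95 and 1.21, and Gspt1, the release factor eRF3, by 0.73 and 0.87. In the list on hypusine of eIF5A and diphthamide of eEF2, 4 of 8 genes rose and 1 fell in each genotype. Srm, which makes the spermidine that hypusine is built from, rose by 3.07 in ST2KO and by 3.01 in WT, an 8.38-fold change in ST2KO. Its level was 10.02 to 10.15 log2 units on the ST2KO IgE arrays, against 6.90 to 7.09 unstimulated, and 9.92 to 10.12 on the WT IgE arrays, against 6.71 to 7.43 unstimulated. Dph2 (1.01 in ST2KO, 1.04 in WT) and Dph1 (0.86, 0.98), of the first step of diphthamide synthesis, rose too.

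Of 10 mitochondrial translation factors 3 rose and 2 fell in ST2KO, and 4 rose and 0 fell in WT. The elongation genes Gfm1 (0.83 in ST2KO, 0.88 in WT), Tsfm (1.07, 0.78) and Tufm (0.41, 0.45) rose in both. Among the 3 scaffolds of the multisynthetase complex, Aimp2 rose by 1.19 in ST2KO and by 1.14 in WT beside Eef1e1, while Aimp1 was at -0.17 and -0.15 without passing.

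Markers of other cells moved with the IgE groups too. Of 5 dendritic cell markers 3 were higher in each genotype, with a mean level of 7.18 to 7.36 log2 units on the ST2KO IgE arrays, against 6.36 to 6.58 unstimulated, and 7.45 to 7.74 on the WT IgE arrays, against 6.50 to 6.88 unstimulated. Of 5 mast cell markers 3 were higher in each genotype, with means of 9.13 to 9.37 on the ST2KO IgE arrays, against 8.41 to 8.72 unstimulated, and 8.67 to 8.93 on the WT IgE arrays, against 8.14 to 8.64 unstimulated. Of 4 erythroid and megakaryocyte markers 2 were lower in ST2KO and 1 in WT, with means of 7.70 to 7.95 on the ST2KO IgE arrays, against 8.55 to 8.85 unstimulated, and 7.84 to 7.92 on the WT IgE arrays, against 8.33 to 8.98 unstimulated. Of 7 neutrophil markers 0 passed. Their means were 5.14 to 5.37 on the ST2KO IgE arrays, against 5.51 to 5.68 unstimulated. In WT they were 5.46 to 6.42 on the IgE arrays, against 6.37 to 7.16 unstimulated. S100a8 was at -1.71 in ST2KO and -2.16 in WT, and S100a9 at -1.79 and -2.42. Mpo, Ltf and Ngp were below 0 in both genotypes. Retnlg was above 0 in both, at 1.07 in ST2KO and 0.255 in WT, and Camp was at 0.12 and -0.20. Prg2 did not pass either, at 6.94 to 7.09 on the ST2KO IgE arrays, against 8.15 to 8.59 unstimulated, and at 6.91 to 9.42 on the WT IgE arrays, against 7.09 to 9.46 unstimulated. The part of these cells in the changes of the translation genes was not tested.

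Whether the IgE response depended on ST2 was asked by comparing the genotypes directly. Of the 79 genes 0 differed in their IgE response between ST2KO and WT, where 0% of all genes did, with 3 of 79 at an unadjusted p under 0.05 (434 of 9973 among all genes). The 95% confidence interval of the difference lay within 2-fold for 75 of the 79 genes and within 1.5-fold for 47. Each genotype called 49 genes, of which 45 were shared, 91.8% of either list, against 80.6% of the ST2KO calls and 84.4% of the WT calls among all genes. All 45 had the same sign, as did all 3955 calls shared among all genes. Across the 79 genes, which are not independent replicates, the changes of the 2 genotypes, measured on different arrays, correlated at r = 0.971, against 0.951 across all genes tested.

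The largest difference was in Eif3h, whose log2 fold change in ST2KO minus that in WT was 0.65 (95% confidence interval 0.13 to 1.16). Its levels were 7.26, 7.36 and 7.22 log2 units on the ST2KO IgE arrays, against 7.51, 7.31 and 7.28 unstimulated, and 6.83, 6.60 and 7.14 on the WT IgE arrays, against 7.34, 7.68 and 7.75 unstimulated. The ST2KO groups overlapped and the WT groups did not, but the difference of responses did not pass (adjusted p = 0.982). In unstimulated cells 0 of the 79 genes differed between ST2KO and WT, where 0% of all genes did, with 3 of 79 at an unadjusted p under 0.05 (832 of 9973 among all genes), and the confidence interval lay within 2-fold for all 79.

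**Figure D4:**
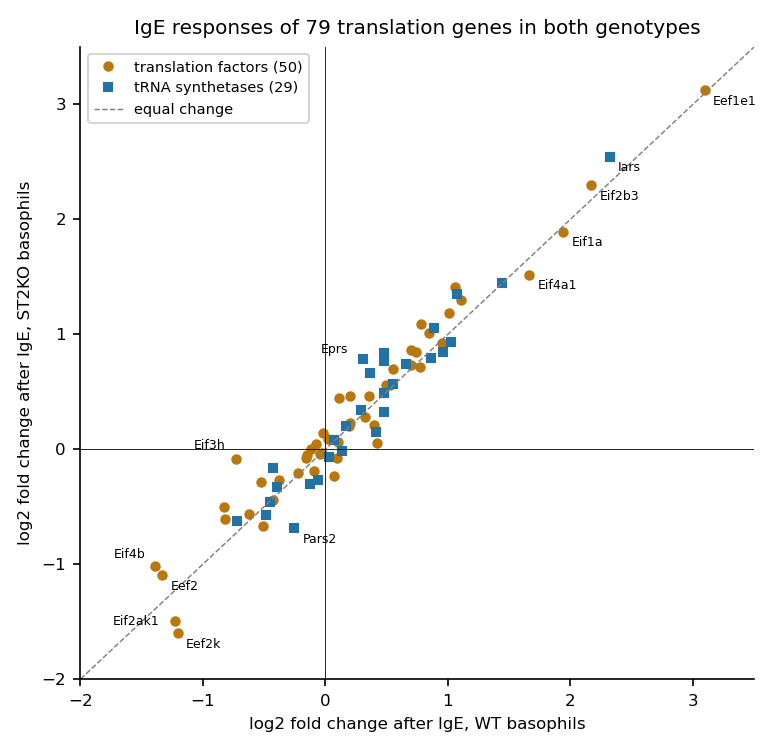
Log2 fold change after IgE activation in ST2KO basophils (vertical axis) against that in WT basophils (horizontal axis) for 50 translation factors (circles) and 29 tRNA synthetases (squares), 1 point per gene. The points follow the dashed line of equal change, with Eef1e1, Iars and Eif2b3 at the upper right and Eef2k and Eif2ak1 at the lower left.

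IL-33 left both families close to their unstimulated levels. In ST2KO basophils 0 of 79 genes passed, as did 0% of all genes, and 0 of the 79 had an unadjusted p under 0.05. In WT basophils 0 of 79 passed, against 3.01% of all genes higher and 0.772% lower, and 9 of 79 had an unadjusted p under 0.05 (1364 of 9973 among all genes). The WT log2 fold changes ran from -0.50 (Eef2k) to 0.51 (Eef1e1). The 95% confidence interval lay within 2-fold for all 79 genes and within 1.5-fold for 62, so for those 62 a change beyond 1.5-fold lay outside the interval.

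The gene nearest to the threshold in WT was Eif6. It had 10.82, 10.61 and 10.70 log2 units on the WT IL-33 arrays, against 10.26, 10.41 and 10.42 unstimulated. The groups did not overlap, and the log2 fold change was 0.35 ± 0.10 (adjusted p = 0.0736). Under 5 of the alternative settings Eif6 did pass, with adjusted p-values between 0.00848 and 0.039. A second probe of Eif6, detected on all 18 arrays, gave a smaller change of 0.11. With the mean of its probes Eif6 did not pass. Eif1b had 10.14, 10.17 and 10.25 on the WT IL-33 arrays, against 10.47, 10.52 and 10.65 unstimulated, also without overlap, at -0.36 ± 0.12 (adjusted p = 0.123).

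The genes that moved most after IgE can be read beside their IL-33 values in WT. Eef1e1 had 6.28, 5.93 and 6.70 log2 units on the WT IL-33 arrays, which overlapped the unstimulated range of 5.63 to 5.97 (log2 fold change 0.51, adjusted p = 0.217). Iars (0.30), Eif2b3 (0.35), Eif1a (0.37) and Eif4a1 (0.29) were above 0 without passing, and Eef2 (-0.13), Eif4b (-0.16) and Eif2ak1 (0.03) were near it. Second probes, detected on all 18 arrays, gave 0.14 for Iars, -0.11 for Eif4a1 and -0.36 for Eif4b. Eef2k had 5.77, 5.48 and 5.65 after IL-33 and did not pass (adjusted p = 0.225). In the lists around the families 0 genes passed after IL-33 in WT, and besides Eef1e1 the largest changes were those of Chac1 (-0.55), Ddit3 (-0.51, adjusted p = 0.0595), Pdcd4 (-0.50) and Denr (0.48).

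The genotypes were compared in their IL-33 response as well. Of the 79 genes 0 differed, against 0.18% of all genes higher and 1.58% lower in ST2KO relative to WT, and 5 of 79 had an unadjusted p under 0.05 (1081 of 9973 among all genes). The largest difference was that of Eef1e1, at -0.67 in ST2KO minus WT (95% confidence interval -1.26 to -0.09, adjusted p = 0.36). The interval lay within 2-fold for 74 of the 79 genes.

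**Figure D5:**
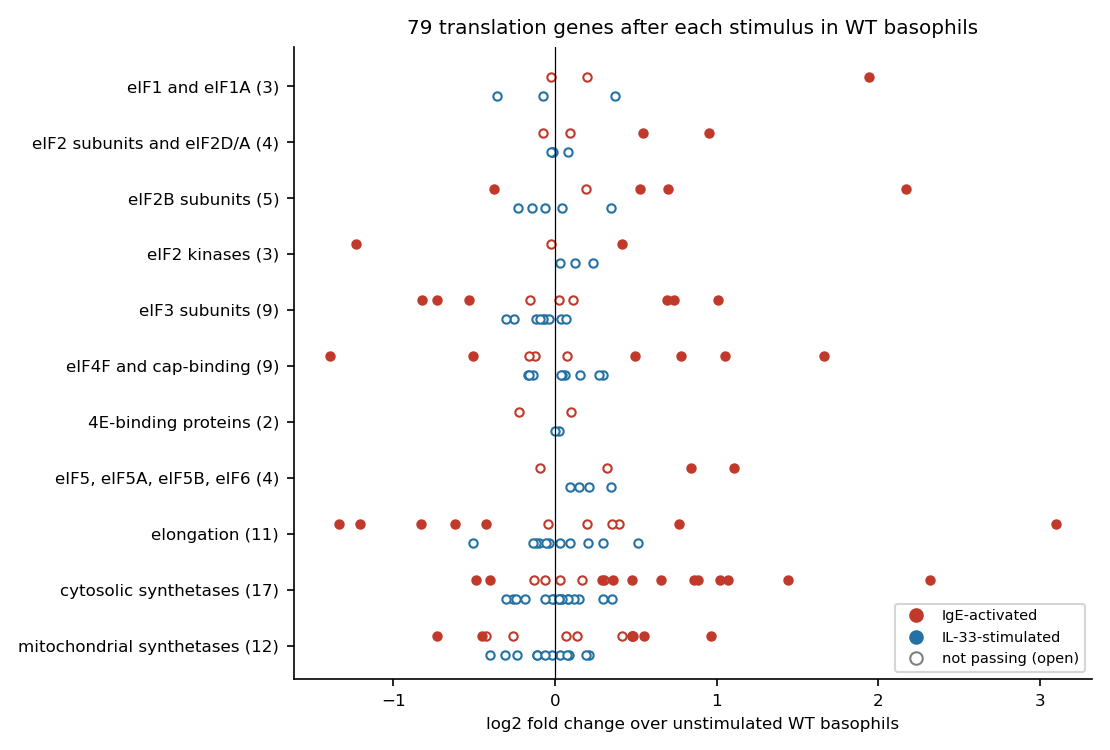
Log2 fold change over unstimulated WT basophils (horizontal axis) after IgE (red, upper) and after IL-33 (blue, lower) for 79 genes by role, with the number of genes in brackets and 1 point per gene. Filled points passed at an adjusted p of 0.05: the IgE points spread from -1.39 to 3.10, while the IL-33 points are all open and lie between -0.50 and 0.51, on the same unstimulated arrays.

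Set directly against each other in WT, IL-33-stimulated cells differed from IgE-activated cells in most of these genes. Relative to IgE, IL-33 cells had 9 factors higher and 20 lower, and 3 synthetases higher and 14 lower, against 21.8% of all genes higher and 21.2% lower. Without the arrays numbered 2 the counts were 9 and 17 for factors and 3 and 12 for synthetases. The lowest were Eef1e1 (-2.58), Iars (-2.02) and Eif2b3 (-1.82), and the highest Eif2ak1 (1.26), Eif4b (1.23) and Eef2 (1.20). This comparison shares the IgE arrays with the comparison against unstimulated cells, so the 2 sets of values are not independent.

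Eif2ak1 had 9.10, 9.25 and 9.11 log2 units on the WT IL-33 arrays, against 7.76, 7.97 and 7.94 on the WT IgE arrays, and Eef2 had 11.36, 11.62 and 11.02 after IL-33, against 10.39, 10.15 and 9.87 after IgE. Both were clear of overlap. Eif4b, with 7.31, 7.46 and 7.16 after IL-33, against 6.90, 6.23 and 5.12 after IgE, lost its call without WT IgE array 3, where the log2 fold change was 0.75 (adjusted p = 0.0523). Iars had 6.41, 6.15 and 6.64 after IL-33, against 8.67, 8.02 and 8.58 after IgE, and Eif2b3 had 6.57, 6.23 and 6.48 after IL-33, against 8.53, 7.83 and 8.38 after IgE. Ears2, the mitochondrial enzyme for glutamate, passed here (-0.81, adjusted p = 0.00456) though it passed in neither comparison with unstimulated WT cells: it had 6.47, 6.18 and 6.81 after IL-33, against 7.23, 7.23 and 7.45 after IgE and 6.79, 7.35 and 6.52 unstimulated.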

How the data were processed

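Each probe's average signal on an array, as the authors deposited it, is a linear intensity without normalization between arrays. Beside it stands a detection p-value, per the file headers. The authors' processed log2 values, deposited separately, served as an alternative. Their background correction, software and build are not given in the sources used here.

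Signals were background corrected and quantile normalized (limma 3.58.1, function neqc, R 4.3.3) at an offset of 16, which shrinks fold changes near background. Of 45281 probes, 18078 were detected (p below 0.05) on 3 or more arrays and kept. Names came from the platform annotation: 34885 probes had 1 symbol, 18 several and 10378 none. The brightest kept probe stood for a gene. Of the 79 genes, 46 had more than 1 kept probe, and 10 of those had a probe of opposite sign after IgE in WT. No levels of different probes were compared. The 6 group means were estimated together from 18 arrays (lmFit, eBayes), and p-values were adjusted over all 9973 genes tested. The fit was tested on simulated data. Where no array of a group detected a gene, its fold is given as a bound.

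The genes and lists were chosen with earlier results of these data known. Genes were given array by array by rule: in each WT stimulation the 5 factors and 5 synthetases with the largest rise and the 4 and 4 with the largest fall among those that passed, elsewhere the 3 largest rises and falls that passed, and the largest change after IgE in WT of each role group. From the lists of other genes the 3 largest changes were named. Eif3h, Eif6, Eif1b, Eef1a1, Eprs and Ears2 were also given by array, after their values were seen.

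Within WT, deviations from group means of same-numbered samples correlated at 0.135 to 0.591. In ST2KO they correlated at 0.119 to 0.206 between IgE and unstimulated samples and at -0.029 to 0.256 between IL-33 and unstimulated samples. Between the genotypes, same-numbered samples correlated at 0.093 to 0.147 (unstimulated), 0.091 to 0.243 (IgE) and -0.236 to 0.386 (IL-33). The ST2KO values overlap those between genotypes, so they do not show that same-numbered samples were paired. The WT values overlap them only in part: the IL-33 and unstimulated samples numbered 2 reached 0.591, above every value between genotypes. Pairing in WT was not tested, and the reported fit did not use the sample numbers. The sample numbers come from the labels, which state no shared batch. The alternatives were other background, normalization, filter, probe, weight and variance settings, a replicate block, and the omission of each array. One promoter sequence is not reported here.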

Additional observations from a re-analysis of the deposited data

How the results depend on the processing

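Each comparison was refitted under 29 alternatives. The count of factors and synthetases that passed after IgE ran from 26 to 31 and from 18 to 22 in ST2KO, and from 27 to 32 and from 15 to 20 in WT. For IL-33 against IgE in WT it ran from 23 to 31 factors and from 13 to 18 synthetases. After IL-33 in WT, 0 factors passed in the reported fit, 1 without background correction, with median centring, without a filter on dim probes or with trend and robust variance, and 2 with array weights. That factor was Eif6 each time, joined by Eif1b with array weights; 0 passed with any array left out, and the cause was not tested. With the replicate block 18 factors rose and 10 fell after IgE in ST2KO, 19 and 12 did in WT, and 0 passed after IL-33 in either genotype. The fit with that block thus moved no count by over 1.5 times. Of the calls after IgE, 40 of 49 in ST2KO and 38 of 49 in WT were kept under every alternative in which the gene could be tested, and 31 of 46 for IL-33 against IgE; Eef2k, Eif2ak3, Eif4e, Pars2 and Sars2 were tested under 28 of the 29. Among the called genes only Eef1d turned round, with the mean of its probes, to 0.010 after IgE in ST2KO, 0.145 after IgE in WT and -0.103 for IL-33 against IgE. The ranges of counts above include the fits with 1 array left out. Dim probes limit Sars2, Aars2, Hars, Farsa, Eif2ak4 and Eif4ebp2, which were detected on 3 to 5 of 18 arrays, so that changes there could be compressed.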
